A study of Arabidopsis thaliana with 12 samples.

Results

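The loci described here lie in the pericentromere of *Arabidopsis thaliana* chromosome 3. They were taken as all entries of the expression table whose locus number runs from AT3G29000 to AT3G43999, without regard to isoform suffix, after 8 loci of that stretch were set aside. This gave 1201 entries of 34133 in the table, covering 1076 loci, of which 125 were listed in 2 entries, the locus and its first isoform. The table came from RNA sequencing of whole seedlings grown for 10 days on MS medium, with 3 libraries for each of 4 genotypes and 12 libraries in all. The genotypes were the *brat1nrpe1* double mutant, the *nrpe1* single mutant, the *brat1* single mutant and the Col-0 wild type (WT), and the mutant alleles are named *brat1-1* and *nrpe1-11*, 1 allele of each gene. No treatment was applied, and the labels do not say whether the replicates were separate cultures, so that p-values measure the spread between these libraries, which may be technical.

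Pericentromeres flank the centromere and consist largely of transposons and their remains, packed in heterochromatin whose cytosines are methylated. In RNA-directed DNA methylation (RdDM), NRPE1, the largest subunit of RNA polymerase V, makes the scaffold transcripts that guide methylation to such sequences and keep them silent. BRAT1 is a protein with an ATPase domain and a bromodomain, a fold that binds acetylated histones, and the study asked whether it protects loci from silencing, both in the wild-type background and where RdDM is lost. The comparisons were therefore *brat1* with WT, *nrpe1* with WT and *brat1nrpe1* with *nrpe1*. Both comparisons with WT share the WT libraries, and both that involve *nrpe1* share the *nrpe1* libraries.

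RefSeq (build TAIR10.1) annotated 902 of the 1201 entries as pseudogenes (75.1%), the class that in this annotation holds transposable element genes, and 264 as protein-coding (22.0%), whereas 13.7% of the entries outside the stretch, and 5.82% of the other chromosome 3 entries, were pseudogenes. Of the rest, 6 were non-coding RNAs and 29 had no match. The matched loci spanned chr3:11005638-15785184, a block of 4.78 Mb, except AT3G36659, which the annotation places at chr3:2100021-2101402 in spite of its number. The share of pseudogenes was 55.8% in the first Mb of the block, 91.4%, 88.3% and 84.4% in the next 3 Mb and 63.1% in the remainder, so that the genes sit mainly at the block's edges.

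Values were FPKM (fragments per kilobase of transcript, scaled to the mapped fragments of the library), as deposited for each library. FPKM carries no counts, so the depth behind each value is unknown from the table and no counting interval is given. The study's records list more mapped reads for replicate 1 of each genotype than for replicates 2 and 3. The replicate 1 libraries also stood apart in the values. *CAB1* (AT1G29930), a chlorophyll-binding protein gene used by every green cell, was listed at 0 in all 4 replicate 1 libraries and at 15416 to 16453 FPKM in the other 8. A listed 0 can therefore be a failed estimate, and counts below are given for each library and without replicate 1. The genotypes were checked first: *BRAT1* (AT1G05910) averaged 2.86 ± 0.230 FPKM in *brat1nrpe1*, 10.1 ± 0.641 in *nrpe1*, 3.18 ± 0.244 in *brat1* and 11.2 ± 0.222 in WT (SD, n = 3 each), and *NRPE1* (AT2G40030) averaged 1.07 ± 0.0455, 1.34 ± 0.0657, 4.97 ± 0.742 and 4.44 ± 0.497 FPKM in the same order of genotypes. Both mutants thus kept some RNA of the mutated gene. Leaf markers summed to between 22589 and 26317 FPKM per library, root hair markers to between 12.7 and 21.8, seed storage markers to at most 4.44 and pollen markers to at most 0.131.

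Most of the pericentromeric entries had no listed RNA in any genotype. Of the 1201, 857 (71.4%) were listed at 0 in all 12 libraries, against 21.0% of the entries outside the stretch. A listed 0 does not show that a locus is silent, since estimates can fail as for *CAB1* and reads that map to several places were not kept. Here an entry is called on in a genotype when the mean of its 3 FPKM values reached 0.1. By this measure 139 entries (11.6%) were on in *brat1nrpe1*, 159 (13.2%) in *nrpe1*, 144 (12%) in *brat1* and 138 (11.5%) in WT. Over all 34133 entries the shares on were 66.1% in *brat1nrpe1*, 66.2% in *nrpe1*, 65.7% in *brat1* and 65.6% in WT. The set on was largely shared: 129 entries were on in all 4 genotypes, 170 in at least 1 and 1031 in none. In whole seedlings, RNA in fewer cells and less RNA per cell cannot be told apart.

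Per library, the number on was 164, 143 and 142 in *nrpe1* replicates 1, 2 and 3, against 143, 126 and 131 in WT. The *nrpe1* library held 21, 17 and 11 more entries on than the WT library of the same replicate number, a mean difference of 12.2% of the WT mean. Across all 3 libraries of each, the ranges overlapped at 143, and the exact two-sided permutation test over the 3 against 3 libraries gave p = 0.3 (adjusted p = 0.45 over 3 comparisons), where the smallest p possible is 0.1. In *brat1nrpe1* the number on was 143, 129 and 131, which was 21, 14 and 11 below the *nrpe1* library of the same number (exact permutation p = 0.3, adjusted p = 0.45). In *brat1* it was 143, 133 and 124, which differed from WT by 0, 7 and -7 (exact permutation p = 1, adjusted p = 1). Thus the higher number in *nrpe1* had 1 direction in all 3 replicate numbers but did not pass a test that ignores them. Without replicate 1 the numbers on were 131, 143, 132 and 128 in *brat1nrpe1*, *nrpe1*, *brat1* and WT.

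The count on in *nrpe1* was 21 above that of WT over all classes and 16 above it over the pseudogenes. Of 902 pseudogene entries, 23 were on in *brat1nrpe1*, 39 in *nrpe1*, 27 in *brat1* and 23 in WT. Per library the pseudogenes on were 44, 29 and 27 in *nrpe1*, against 28, 18 and 19 in WT, a difference of 16, 11 and 8 by replicate number (mean difference 53.8% of the WT mean, exact permutation p = 0.2, adjusted p = 0.3). In *brat1nrpe1* they were 28, 17 and 20, which was 16, 12 and 7 below *nrpe1* (exact permutation p = 0.2, adjusted p = 0.3). In *brat1* they were 27, 19 and 14, against 28, 18 and 19 in WT (exact permutation p = 0.8). Protein-coding entries on numbered 114 of 264 in *brat1nrpe1*, 116 in *nrpe1*, 114 in *brat1* and 112 in WT, and the *nrpe1* libraries held 4, 6 and 3 more than the WT libraries of the same number (exact permutation p = 0.2, adjusted p = 0.45). Whether the 2 classes differed from each other was not tested. Pseudogenes outside the stretch on were 423 of 4504 in *brat1nrpe1*, 454 in *nrpe1*, 405 in *brat1* and 399 in WT, and their mean number per library in *nrpe1* was 13.6% above that of WT. The difference between these 2 groups of pseudogenes was not tested.

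**Figure D1:**
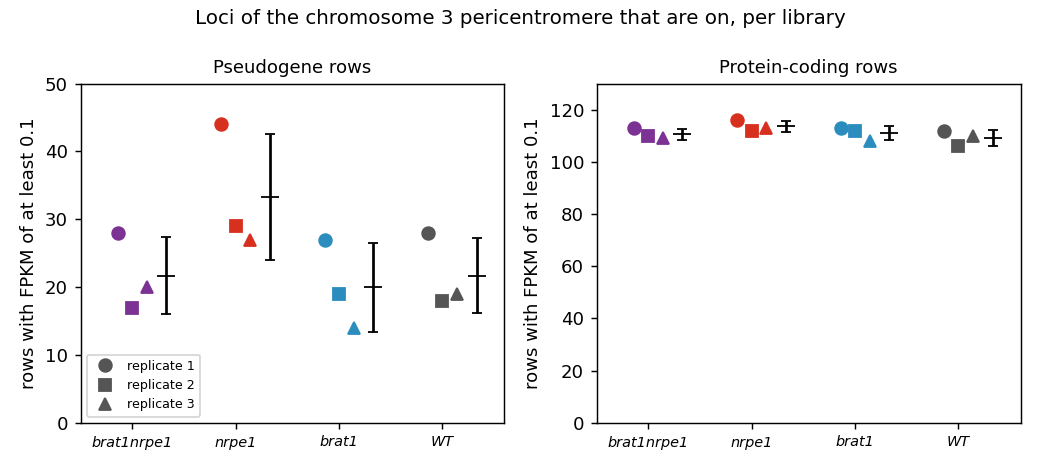
Number of entries with an FPKM of at least 0.1 in each library, for pseudogenes (left) and protein-coding entries (right), with the mean and SD of the 3 libraries beside the points. The *nrpe1* libraries hold 27 to 44 pseudogenes on and the WT libraries 18 to 28, while protein-coding entries lie between 106 and 116 in all 12 libraries.

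By genotype, 19 entries were on only in *nrpe1*, 4 only in *brat1*, 1 only in *brat1nrpe1* and 1 only in WT. Of the 19, 14 were pseudogenes, 4 were protein-coding and 1 had no match. The pseudogene AT3G30843 is counted with both its entries, the locus and its first isoform, so the entries are not all separate loci. They made up 11.2% of the entries on in any genotype, and 32.6% of the pseudogenes on in any genotype (14 of 43), against 0.885% and 8.35% outside the stretch. As they were sorted by their own values, these shares are a description. Of the 19, 11 were above 0 in all 3 *nrpe1* libraries and 7 were at 0.1 or more in all 3, whereas 12 were listed at 0 in all 3 WT libraries. Of the 25 entries on in *nrpe1* and not in WT, 5 were also on in *brat1nrpe1* and 20 were not. These 25 were chosen for being on in *nrpe1*, so some would be off in any other genotype through that choice alone. Nothing is read from this split.

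Replicate 1 decided some of these. AT3G29431 (no match) was listed at 3.87, 0 and 0 FPKM in *nrpe1*, against 0 in all 3 WT libraries, and the pseudogene AT3G29420 at 2.23, 0 and 0, against 0 in all 3 WT libraries, so that both rest on 1 library. Others were steady. The pseudogene AT3G30844.1 was at 0, 0 and 0.0181 FPKM in *brat1nrpe1*, at 0.148, 0.164 and 0.149 in *nrpe1* and at 0 in all 3 WT libraries. The nearby pseudogene AT3G30846 was at 0.0176, 0.0131 and 0.0710 in *brat1nrpe1*, at 0.103, 0.128 and 0.175 in *nrpe1* and at 0 in all 3 WT libraries. Of AT3G30846, 27.4% has a near-identical copy (at least 98% identity over at least 100 bases) at another place in the genome, and reads from such stretches may be lost where only uniquely mapped reads are kept. AT3G42182, another pseudogene, was at 0.0715, 0.0436 and 0.0158 in *brat1nrpe1*, at 0.280, 0.111 and 0.0646 in *nrpe1* and at 0 in all 3 WT libraries. These 3 were chosen as on in *nrpe1* and at 0 in all WT libraries, so any value above 0 in *nrpe1* lies above WT. Their levels were close to the limit of 0.1, and AT3G42182 was below it in *nrpe1* replicate 3.

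Some entries were on in 1 genotype and listed at 0 in all libraries of another. Of those on in WT, 3 were at 0 in all *brat1nrpe1* libraries, 2 in all *nrpe1* libraries and 3 in all *brat1* libraries. In turn, 3 entries on in *brat1nrpe1*, 12 on in *nrpe1* and 4 on in *brat1* were listed at 0 in all WT libraries. The difference between these counts was not tested. They were not made over all entries of the table, so nothing about this stretch is read from them. Among the entries on in WT and at 0 in a mutant, the pseudogene AT3G43828.1 was the one seen in each WT library, at 0.685, 0.167 and 0.240 FPKM, against 0 in all 3 *brat1* libraries. It was at 0.231, 0 and 0 in *brat1nrpe1*, against 1.14, 0.142 and 0.291 in *nrpe1*. AT3G42628 was listed at 7.03 FPKM in *brat1nrpe1* replicate 1 and at 10.4 in WT replicate 1, and at 0 in the other 10 libraries, so that it was seen in replicate 1 alone.

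Along the block, the entries on followed the genes. In the first Mb 66 of 240 entries were on in *brat1nrpe1*, 65 in *nrpe1*, 66 in *brat1* and 61 in WT. In the next Mb, with 256 entries, 8, 16, 8 and 9 were on in the same order of genotypes, and 8 of the entries on only in *nrpe1* lay there. The 2 Mb after that had 11 to 13 and 20 to 21 entries on, and the remainder 33 in *brat1nrpe1*, 41 in *nrpe1*, 36 in *brat1* and 35 in WT. Of the 8 entries on only in *nrpe1* counted above, AT3G30842, both entries of AT3G30843, AT3G30844.1 and AT3G30846 lay together at chr3:12593810-12619019. They are therefore not all separate loci or places.

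**Figure D2:**
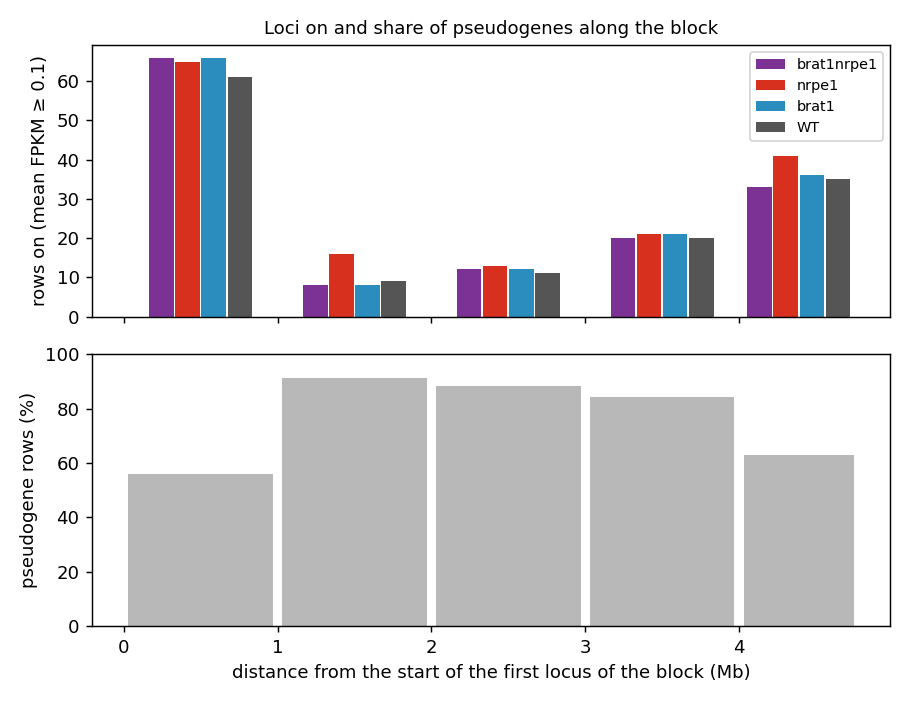
Entries on in each genotype (mean FPKM of at least 0.1, upper panel) and percentage of entries annotated as pseudogenes (lower panel), by distance from the first locus of the block in steps of 1 Mb, the last step being shorter. In the step from 1 to 2 Mb, where 91.4% of entries are pseudogenes, 16 entries were on in *nrpe1* and 8 or 9 in the other genotypes. The 16 count both entries of the locus AT3G30843.

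For the test of single loci, 149 of the 1201 entries passed a mean of at least 0.1 FPKM over the 12 libraries and 1052 did not. The 149 were 116 protein-coding entries, 29 pseudogenes, 2 non-coding RNAs and 2 without match, and their median level was 6.15 FPKM, against 10.2 over all 22645 entries tested. An entry with values in *nrpe1* alone could pass this filter only through *nrpe1*, so the tested pseudogenes do not stand for the 902. The same holds for *brat1*. Of the called loci described below, AT3G30803 and AT3G43370.1 passed only through *nrpe1* and AT3G29580 only through *brat1* (means over the other 9 libraries 0.0314, 0 and 0.0592 FPKM), so they had to differ to be tested. They are 2 of the 8 loci called higher in *nrpe1*, 2 of the 6 called lower in *brat1nrpe1* and 1 of the 2 called higher in *brat1*, and their p-values are given as a description. Among the most expressed were the peroxidase AT3G32980 (258 to 486 FPKM in the 12 libraries), the vacuolar proton pump subunit AT3G42050 (153 to 170), the amino acid transporter AT3G30390 (148 to 191), calmodulin *CAM7* (AT3G43810, 128 to 149), the starch phosphorylase *PHS1* (AT3G29320, 57.1 to 179) and the lipid transfer protein *LTPG2* (AT3G43720, 68.7 to 102). None of these 6 passed the threshold below in any comparison. *PHS1* and AT3G30390 overlap genes of the other strand, whose reads could be counted with theirs. AT3G29240, a gene of unknown function, showed how replicate 1 differed: it was at 48.7 to 60.0 FPKM in the 4 replicate 1 libraries and at 226 to 281 in the other 8.

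Differences were tested with limma on log2(FPKM + 0.1) over all 22645 entries, with p-values adjusted by Benjamini-Hochberg over all of them, and all log2 differences below are on this scale, where changes of loci with low values come out too small. A locus was called higher or lower at an unadjusted P under 0.01 and a log2 difference beyond 1. In *nrpe1* relative to WT, 8 of the 149 entries (5.37%) were higher, against 0.477% of all entries tested, and 0 were lower, against 0.185%, with 1 entry lower at an unadjusted p under 0.05. At an adjusted p under 0.05, 7 were higher (all entries 0.269%) and 0 lower (0.0839%). The 8 and the 7 both include AT3G30803 and AT3G43370.1, which had to differ to be tested. In *brat1nrpe1* relative to *nrpe1*, 1 entry (0.671%) was higher, against a background of 0.159%, and 6 (4.03%) were lower, against 0.349%. At an adjusted p under 0.05, 3 were lower (all entries 0.102%), and 1 of these also had a difference beyond 1. In *brat1* relative to WT, 2 (1.34%) were higher, against 0.194%, and 2 (1.34%) lower, against 0.19%, and at an adjusted p under 0.05 limma called 0 higher (all entries 0.00883%) and 0 lower (0.0397%), against 3 and 10 at an unadjusted p under 0.05. The median log2 difference of the 149 entries was 0.03 in *nrpe1* relative to WT (all entries 0.01), -0.05 in *brat1nrpe1* relative to *nrpe1* (all entries 0.00) and -0.04 in *brat1* relative to WT (all entries 0.00), so that most expressed loci of the block stayed near 0 and a few moved. The 8 loci set aside from the stretch were tested but are not among the 149. Of these 8, 3 were called higher and 2 lower in *nrpe1* relative to WT. In *brat1nrpe1* relative to *nrpe1*, 1 was called higher and 4 lower, and in *brat1* relative to WT 0 higher and 2 lower. Of the other 4321 tested chromosome 3 entries, 8 were higher and 7 lower in *nrpe1*. Of the 424 tested pseudogenes outside the stretch, 7.55% were higher and 1.42% lower in *nrpe1* relative to WT. In *brat1nrpe1* relative to *nrpe1*, 0.472% of them were higher and 4.72% lower, and in *brat1* 0.472% and 2.36%. Shares of this size were thus also seen outside the stretch among pseudogenes, but these were 29 of the 149 entries tested here. Over the other tested chromosome 3 entries of all classes, 0.185% were higher in *nrpe1*. Of the 116 tested protein-coding entries of the stretch, 5 (4.31%) were higher in *nrpe1*. The share for protein-coding entries alone outside the stretch was not computed. The differences between these groups were not tested.

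**Figure D3:**
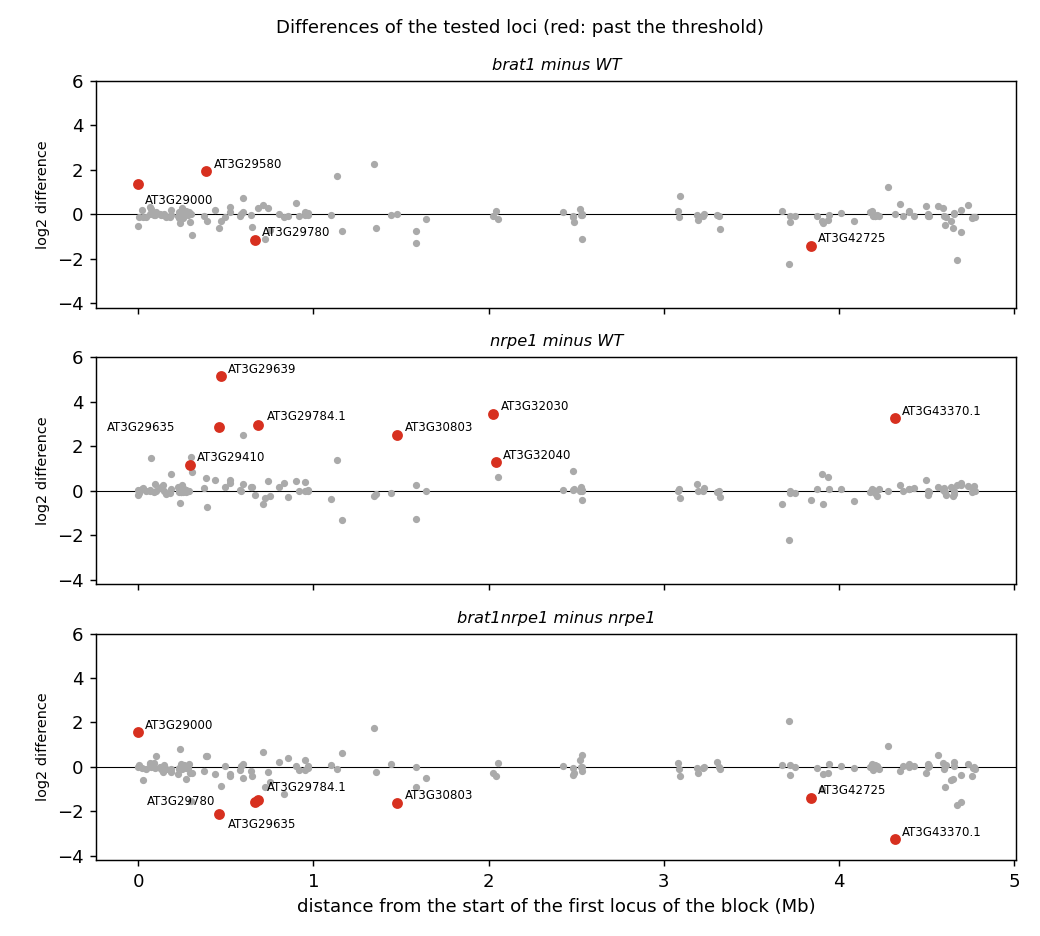
Log2 difference of each tested entry on the log2(FPKM + 0.1) scale by distance from the first locus of the block, for the 3 comparisons, with called loci in red. The 8 loci called in *nrpe1* relative to WT all lie above 0 and spread over the block, and 7 of the 12 loci called in any comparison lie in the first Mb, which holds 66 of the 149 tested entries.

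The largest log2 difference between *nrpe1* and WT, with the pseudocount of 0.1, was that of AT3G29639 (chr3:11478633-11480033, minus strand), which lies near another called gene, AT3G29635 (chr3:11465695-11467254, minus strand). The 2 genes are 11.4 kb apart, with 2 other loci between them that did not pass the filter. The 250 bases before the annotated start of each (RefSeq, TAIR10.1, written on the gene's strand) are shown because both genes responded. The number of CG dinucleotides is given with each as a description. Methylation at CG sites is kept up by the enzyme MET1, and RdDM is not limited to these sites. Methylation is not part of these data. Capitals mark matches to TATAAA, the core letters of a TATA box, on either strand (TTTATA on the strand shown).
AT3G29639, chr3:11480034-11480283, minus strand: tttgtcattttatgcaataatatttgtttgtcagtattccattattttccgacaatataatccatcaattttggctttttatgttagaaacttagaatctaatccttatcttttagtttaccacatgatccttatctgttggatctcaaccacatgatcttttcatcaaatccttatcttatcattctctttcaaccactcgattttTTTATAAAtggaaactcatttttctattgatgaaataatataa
AT3G29635, chr3:11467255-11467504, minus strand: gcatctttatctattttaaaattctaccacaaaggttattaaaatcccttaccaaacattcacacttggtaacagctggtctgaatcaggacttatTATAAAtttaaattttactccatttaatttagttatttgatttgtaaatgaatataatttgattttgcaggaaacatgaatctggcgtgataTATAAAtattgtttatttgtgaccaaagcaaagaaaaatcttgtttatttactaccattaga
The AT3G29639 window holds 1 match on the strand shown and 1 overlapping match on the other strand, and 2 CG dinucleotides. The AT3G29635 window holds 2 matches on the strand shown and 1 CG dinucleotide. Over all 37897 gene windows of this length, 44.6% hold a match on either strand and the median number of CG dinucleotides is 5 (quartiles 3 and 7). A match is a description of the letters only.

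AT3G29639 encodes an uncharacterised protein. Its FPKM was 20.4, 21.6 and 20.7 in *nrpe1*, against 0.270, 0.595 and 0.710 in WT. All 3 *nrpe1* libraries lay far above all WT libraries, and the log2 difference was 5.14 (SE 0.41, adjusted p = 0.000337). With a pseudocount of 0.01 it was 5.4, below those of AT3G43370.1 (6.39) and AT3G30803 (5.57), which were at 0 in WT. In *brat1nrpe1* it was at 9.21, 11.4 and 13.9, below each *nrpe1* library, but the difference of -0.87 was not called (adjusted p = 1). In *brat1* it was at 0.703, 0.153 and 0.475, overlapping the WT libraries (difference -0.28, adjusted p = 1).

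AT3G29635 encodes an acyltransferase of the HXXXD family, enzymes that transfer acyl groups from coenzyme A to plant metabolites. Its FPKM was 2.61, 3.46 and 3.68 in *nrpe1*, against 0.371, 0.412 and 0.301 in WT, a log2 difference of 2.85 (SE 0.24, adjusted p = 0.000402). In *brat1nrpe1* it was at 0.770, 0.560 and 0.710, against the *nrpe1* values above, a difference of -2.10 (SE 0.24, adjusted p = 0.00950). The double mutant libraries lay below every *nrpe1* library and above every WT library. In *brat1* it was at 0.300, 0.139 and 0.191, a difference from WT of -0.60 that was not called (adjusted p = 1). Of 8 listed acyltransferases 4 were tested, and in *nrpe1* relative to WT this was the 1 called (all entries 0.477% higher). *PMAT2* (AT3G29670), a malonyltransferase, was at 5.99, 8.13 and 8.78 in *nrpe1*, against 6.29, 5.20 and 4.71 in WT, and AT5MAT (AT3G29590), an anthocyanin malonyltransferase, at 2.09, 2.34 and 2.92 in *nrpe1*, against 3.22, 3.98 and 5.33 in WT. The AT5MAT libraries of the 2 genotypes did not overlap, but the difference of -0.73 was within the limit of 1.

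Terpenoid genes made up 3 of the 8 loci called higher in *nrpe1*. Terpene synthases build terpenoids from prenyl diphosphates, and prenyl diphosphate synthases make those substrates. Of 7 listed terpenoid and prenyltransferase genes 5 were tested. In *nrpe1*, 3 of these were higher (all entries 0.477%) and 0 lower (0.185%), with a median log2 difference of 1.27, against 0.01 over all entries tested. The annotation holds 2 neighbouring pairs in the block, each of a terpenoid cyclase and a terpenoid (prenyl) synthase: AT3G32030 with AT3G32040, 12.2 kb apart, and AT3G29410 with AT3G29430, 6.07 kb apart. The cyclases AT3G29410 and AT3G32030 are 70.8% identical over 1826 aligned bases and the synthases AT3G29430 and AT3G32040 are 89.1% identical over 1327 bases.

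The cyclase AT3G32030 (chr3:13032306-13035440) was at 7.81, 7.80 and 7.28 FPKM in *nrpe1*, against 0.990, 0.299 and 0.689 in WT. The 2 genotypes were well apart, with a log2 difference of 3.46 (SE 0.34, adjusted p = 0.00120). It stayed near that level in *brat1nrpe1*, at 7.15, 5.90 and 5.71, against the *nrpe1* values (difference -0.29, adjusted p = 1), and *brat1* was at 0.812, 0.404 and 0.557. Its neighbour AT3G32040 (chr3:13047645-13049106) was at 3.43, 4.06 and 4.50 in *nrpe1*, against 1.43, 1.89 and 1.47 in WT, a smaller difference of 1.27 (SE 0.19, adjusted p = 0.0196). Here *brat1nrpe1* was at 3.59, 3.14 and 2.26, a difference from *nrpe1* of -0.42 that was not called (adjusted p = 1).

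In the other pair, the cyclase AT3G29410 (chr3:11302431-11305198) was at 3.62, 5.47 and 4.82 in *nrpe1*, against 1.28, 2.49 and 2.51 in WT, a difference of 1.15 (SE 0.30, adjusted p = 0.448). This call was lost when WT replicate 1 (0.85), *nrpe1* replicate 2 (1.02) or *nrpe1* replicate 3 (1.11) was left out. With the replicate number as a block it held at an adjusted p of 0.0149. The synthase AT3G29430 (chr3:11311266-11312823) was at 1.19, 1.85 and 2.16 in *nrpe1*, against 0.941, 0.735 and 1.03 in WT, a difference of 0.84 that missed the limit on size (adjusted p = 0.644). In *brat1* it was at 0.513, 0.337 and 0.448, below every WT library, and its difference of -0.91 again missed that limit (adjusted p = 0.708). AT3G29110, another cyclase gene, was at 0.196, 0.434 and 0.564 in *nrpe1*, against 0.0640, 0.0457 and 0.10 in WT (difference 1.49, adjusted p = 1), and it was called only with the replicate number as a block. None of the 5 tested was called in *brat1* relative to WT or in *brat1nrpe1* relative to *nrpe1*.

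Of the 29 tested pseudogenes, 3 were called higher in *nrpe1* than in WT, and the same 3 were called lower in *brat1nrpe1* than in *nrpe1*, a comparison that shares the *nrpe1* libraries. As 2 of the 3 passed the filter only through *nrpe1*, nothing is read from these counts. AT3G29784.1 (chr3:11690059-11691067) was at 0.735, 1.11 and 0.834 FPKM in *nrpe1*, against 0.0300, 0 and 0.0628 in WT (difference 2.93, adjusted p = 0.0174). In *brat1nrpe1* it was at 0.212, 0.477 and 0.148 (difference from *nrpe1* -1.47, adjusted p = 0.573). The double mutant thus lay between *nrpe1* and WT, with no overlap of libraries.

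AT3G30803 (chr3:12485527-12487452) was at 0.687, 0.346 and 0.423 in *nrpe1*, against 0 in all 3 WT libraries (limma adjusted p = 0.0190). In *brat1nrpe1* it was at 0.184, 0.0635 and 0.0345 (difference from *nrpe1* -1.63, adjusted p = 0.287). Of its length, 31.2% has a near-identical copy. AT3G43370.1 (chr3:15323338-15324286) was at 0 in all 3 *brat1nrpe1* libraries, against 0.267, 1.91 and 1.09 in *nrpe1*, and at 0 in all *brat1* and WT libraries (adjusted p = 0.0383 in *nrpe1* relative to WT and 0.0674 in *brat1nrpe1* relative to *nrpe1*). All of this locus (100%) has a near-identical copy, and the table also lists it as AT3G43370 with values below 1e-06 FPKM, so that its reads cannot be assigned with certainty.

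The calls of these pseudogenes in *brat1nrpe1* relative to *nrpe1* depended on single libraries or replicate numbers. That of AT3G29784.1 was lost without any 1 of *nrpe1* replicates 1 (-1.58), 2 (-1.31) or 3 (-1.50) or of *brat1nrpe1* replicates 1 (-1.38) or 3 (-1.21), and that of AT3G30803 without all libraries of replicate number 1 (-1.70), 2 (-1.72) or 3 (-1.46). Both calls of AT3G43370.1 were lost without the libraries of replicate number 3 (3.10 and -3.10), which left 3 loci lower in *brat1nrpe1*. With a pseudocount of 0.01, AT3G29784.1 (-1.79) and AT3G30803 (-2.47) were not called lower.

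**Figure D4:**
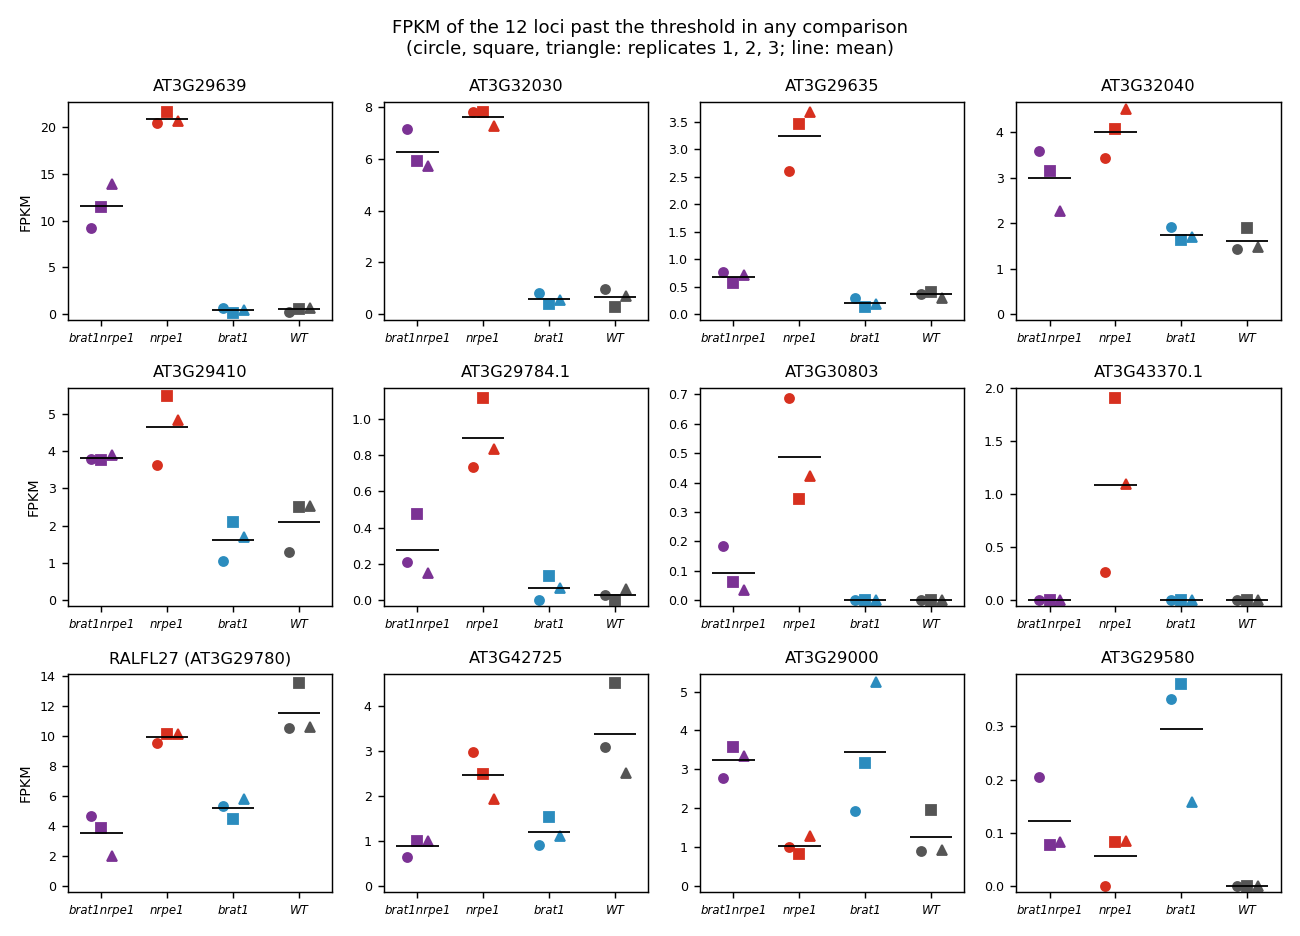
FPKM in each library of the 12 loci called in any comparison, with 1 panel for each locus, symbols for the replicate number and a line at the mean. AT3G29635, AT3G29784.1, AT3G30803 and AT3G43370.1 are lower in *brat1nrpe1* than in *nrpe1*, AT3G32030 is high in both, and *RALFL27* and AT3G42725 are lower in both genotypes that carry *brat1*.

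2 protein-coding genes, *RALFL27* and AT3G42725, were lower where *BRAT1* was mutated, in both backgrounds. The 250 bases before AT3G42725 are given as well, with the same capitals.
AT3G42725, chr3:14843719-14843968, minus strand: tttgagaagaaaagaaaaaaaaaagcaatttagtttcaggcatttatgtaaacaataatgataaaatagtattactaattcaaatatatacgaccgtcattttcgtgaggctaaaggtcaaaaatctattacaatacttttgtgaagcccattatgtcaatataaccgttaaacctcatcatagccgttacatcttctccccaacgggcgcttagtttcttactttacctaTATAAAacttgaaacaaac
This window holds 7 CG dinucleotides, at the upper quartile of all gene windows. The windows of AT3G32030 and AT3G32040, not printed, hold 3 and 4 CG dinucleotides and 0 matches on either strand. That of AT3G32030 overlaps the gene AT3G32035. The windows of *RALFL27* and the remaining called loci were not read, so these numbers do not set loci apart by their response. The AT3G42725 window holds 1 match to TATAAA, which lies near the gene's start.

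*RALFL27* (AT3G29780) encodes a peptide of the rapid alkalinization factor family, secreted signals that act at the cell surface. Its FPKM was 5.34, 4.49 and 5.82 in *brat1*, against 10.6, 13.6 and 10.6 in WT, with no overlap (difference -1.13, SE 0.26, adjusted p = 0.461). In *brat1nrpe1* it was at 4.68, 3.87 and 2.0, against 9.56, 10.2 and 10.1 in *nrpe1*, again apart (difference -1.56, SE 0.26, adjusted p = 0.0726). Between *nrpe1* and WT the difference was -0.21 (adjusted p = 1). AT3G42725 encodes a putative membrane lipoprotein. It was at 0.917, 1.53 and 1.12 in *brat1*, against 3.08, 4.51 and 2.52 in WT (difference -1.41, SE 0.28, adjusted p = 0.273), and at 0.647, 1.0 and 0.992 in *brat1nrpe1*, against 2.98, 2.48 and 1.92 in *nrpe1* (difference -1.39, SE 0.28, adjusted p = 0.166). The effect of *brat1* in the *nrpe1* background less that in WT was -0.42 ± 0.37 for *RALFL27* and 0.03 ± 0.39 for AT3G42725 (SE of the interaction term), neither of them called.

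Same-numbered libraries deviated from their genotype means together, as did libraries numbered 2 and 3 of different genotypes, while replicate 1 libraries deviated the other way. With the replicate number as a block, 4 loci instead of 2 were lower in *brat1* than in WT (0.269% of all entries), 2 of them at an adjusted p under 0.05: AT3G42725 (adjusted p = 0.0242) and *COBL2* (AT3G29810, adjusted p = 0.0238). *COBL2*, a COBRA-like protein of cellulose deposition, was at 0.677, 1.33 and 1.29 in *brat1*, against 1.35, 3.39 and 3.03 in WT (difference -1.12), and at 0.731, 1.13 and 1.1 in *brat1nrpe1*, against 1.59, 2.06 and 2.1 in *nrpe1* (difference -0.90). It was lower in the *brat1* library of each replicate number, and without the block its adjusted p was 1. The other locus added was the pseudogene AT3G43828.1, described above. The call of *RALFL27* was lost without the libraries of replicate number 2 (-0.91), and without WT replicate 1 the loci lower in *brat1* numbered 5.

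2 genes were higher in *brat1* than in WT. AT3G29580, a gene with a MATH domain, which mediates protein contacts, was at 0.351, 0.379 and 0.157 in *brat1*, against 0 in all 3 WT libraries (called higher, adjusted p = 0.293), and at 0.204, 0.0766 and 0.0834 in *brat1nrpe1*, against 0, 0.0834 and 0.0852 in *nrpe1*, where the libraries overlapped. AT3G29000, an EF-hand protein of calcium signalling, was at 1.92, 3.16 and 5.23 in *brat1*, against 0.895, 1.96 and 0.940 in WT (difference 1.35, SE 0.37, adjusted p = 0.882), where the highest WT library lay above the lowest *brat1* library. It was at 2.77, 3.58 and 3.35 in *brat1nrpe1*, against 0.997, 0.835 and 1.28 in *nrpe1* (difference 1.56, SE 0.37, adjusted p = 0.343), with no overlap, and was the 1 locus called higher there. Without *brat1* replicate 2 none of the 149 entries was called higher in *brat1* by limma, and without *brat1* replicate 1 or 3 or WT replicate 3 it was 1. Without *brat1* replicate 1 or 2, AT3G29580 fell below the filter and was not tested. The call of AT3G29000 in *brat1* was lost without *brat1* replicate 2 (1.35) or 3 (0.997) or WT replicate 1 (1.16) or 3 (1.19), and that of AT3G29580 without the libraries of replicate number 1 (1.81) or 2 (1.77). In the double mutant the call of AT3G29000 was lost without replicate number 2 (1.35).

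2 further genes were lower in *brat1nrpe1* than in *nrpe1* at an adjusted p under 0.05, with differences under the limit of 1. AT3G30841, of a phosphoglycerate mutase family that includes enzymes of glycolysis, was at 3.39, 4.07 and 4.11 in *brat1nrpe1*, against 7.73, 7.14 and 6.93 in *nrpe1* (difference -0.90, SE 0.12, adjusted p = 0.0288). It was at 3.88, 3.43 and 3.25 in *brat1*, against 6.76, 5.36 and 6.02 in WT, where the libraries were apart as well. AT3G43740, a leucine-rich repeat protein, was at 19.2, 17.8 and 16.1 in *brat1nrpe1*, against 26.6, 26.5 and 25.9 in *nrpe1* (difference -0.57, SE 0.08, adjusted p = 0.0432), and at 19.8, 20.0 and 17.3 in *brat1*, against 22.9, 23.9 and 23.4 in WT.

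Whether the effect of *brat1* differed between the backgrounds was tested by the interaction term, the *brat1nrpe1* minus *nrpe1* difference less the *brat1* minus WT difference. It was called negative for 2 of the 149 entries (1.34%, against 0.181% of all entries) and positive for 0 (against 0.102%, with 1 entry at an unadjusted p under 0.05). They were AT3G29635 (-1.50, SE 0.34) and AT3G43370.1 (-3.26, SE 0.75), both with an adjusted p = 1. AT3G43370.1 was at 0 in all *brat1nrpe1*, *brat1* and WT libraries, so its term only repeats its *nrpe1* values and is no sign of a difference between backgrounds. For AT3G29784.1 and AT3G30803 the term was -1.77 and -1.63, with an unadjusted P above 0.01. AT3G30803 was also at 0 in all *brat1* and WT libraries. Its term therefore only repeats its *brat1nrpe1* minus *nrpe1* difference and is no sign of a difference between backgrounds. Without the libraries of replicate number 2 or 3 no entry was called negative. The 8 loci set aside are not in these counts, and of them 3 were called positive and 3 negative with all libraries.

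Some more loci are described because they stand in the study's lists of changed genes, which were chosen on these same libraries and are no independent evidence. The pseudogene AT3G29788 was at 1.46, 1.41 and 1.11 in *nrpe1*, against 0.698, 0 and 0.0914 in WT (difference 2.51, adjusted p = 1), and it was called with the replicate block (adjusted p = 0.0938) and without replicate number 1 or WT replicate 1. It was at 1.28, 0.993 and 0.542 in *brat1nrpe1*. AT3G42800 was at 2.30, 0.765 and 0.831 in *brat1nrpe1*, against 4.73, 1.80 and 1.61 in *nrpe1*, lower in each replicate number (difference -1.01, adjusted p = 1, with the block called at an adjusted p = 0.0456). The pseudogenes AT3G43730.1 (0.181, 0.0421 and 0.0644 FPKM) and AT3G29076 (0.0172, 0.0631 and 0.116) were above 0 in all *nrpe1* libraries and at 0 in all WT libraries, but both were too low to be tested.

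The groups of genes in the block other than those above showed little. Of 31 listed zinc finger and transposon-derived protein genes 10 were tested and 0 was called in any of the 3 comparisons, with medians of -0.02 in *brat1* relative to WT, 0.04 in *nrpe1* relative to WT and 0.00 in *brat1nrpe1* relative to *nrpe1*. Of 7 listed F-box and protease genes 1 was tested and not called, and of 6 non-coding RNAs 2 were tested and not called. One of the RNAs, the 18S ribosomal RNA AT3G41768, was at 111 to 336 FPKM in *nrpe1*, against 108 to 429 in WT. All of it (100%) has a near-identical copy, and the libraries were made from poly-A RNA, which most ribosomal RNA does not enter.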

How the data were processed

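Whole seedlings of 4 genotypes were profiled in 3 libraries each, and the labels gave the genotype and replicate number of every library. The deposited values are FPKM per gene and library, made by the authors, who mapped reads of poly-A RNA to TAIR10 with TopHat, allowed up to 2 mismatches, kept uniquely mapped reads and computed FPKM with Cufflinks; the submitters' processing notes name TopHat2 2.0.12 and Cufflinks 2.0.1, and the normalization options are not given in the sources used here. Reads from near-identical copies, frequent in a pericentromere, may be lost in this way. FPKM carry no counts, so depth per value is unknown and no count model was used. The 12 columns were used and 0 columns of other samples.

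Entries were matched by locus to RefSeq TAIR10.1, which matched 1172 of 1201. An entry was on at a mean of at least 0.1 FPKM, and numbers on per library were compared with an exact two-sided permutation test. Entries with a mean of at least 0.1 FPKM over the 12 libraries were fitted with limma 3.58.1 in R 4.3.3 (trend, all 12 libraries, log2 with a pseudocount of 0.1) on the whole table, with Benjamini-Hochberg adjustment over 22645 entries. Calls needed P under 0.01 and a log2 difference beyond 1, the limits the study used for genes. The fit was tested on simulated data. Copies were searched with BLAST 2.17.0, and other steps ran in Python 3.11.15 (pandas 2.3.3, scipy 1.17.1).

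Deviations from the genotype means correlated between same-numbered libraries (mean r = 0.682, lowest 0.593 over 18 pairs, across the tested entries, which are not independent replicates), which met the rule of a correlation over 0.1 in every pair. Libraries numbered 2 and 3 also correlated across genotypes (mean r = 0.597, highest 0.619 over 12 pairs), and number 1 went against both (mean r = -0.705 over 24 pairs), so the pairing mainly reflects number 1 against 2 and 3. A fit with the number as a block was an alternative. Other alternatives changed the pseudocount, filter, scaling, moderation, libraries and threshold. Named loci were those called, those in the study's lists, the 10 highest, those on in 1 genotype and at 0 in WT or the reverse (the highest of them), and examples of groups fixed by annotation. Others, such as AT3G30841 and AT3G43740, were chosen after their values were seen. The loci and groups were chosen with earlier results of these data known.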

Additional observations from a re-analysis of the deposited data

Results flagged for a closer look

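The interaction term in limma, the effect of *brat1* in the *nrpe1* background less its effect in the wild-type background, had an unadjusted P under 0.01 for 2 loci. For the acyltransferase AT3G29635 the term was -1.50, with *brat1nrpe1* below *nrpe1* in 3 of 3 replicate numbers (0.770, 0.560 and 0.710 FPKM, against 2.61, 3.46 and 3.68) and *brat1* below WT in 3 of 3 (0.300, 0.139 and 0.191, against 0.371, 0.412 and 0.301). For the pseudogene AT3G43370.1 it was -3.26, with 0 in all *brat1nrpe1* libraries, against 0.267, 1.91 and 1.09 FPKM in *nrpe1*, and 0 in all *brat1* and WT libraries. A locus at 0 in WT cannot fall further in *brat1*, so for AT3G43370.1 the term only repeats its *nrpe1* values, through which alone it passed the filter, and it is no sign that the effect differed. Neither term passed at an adjusted p under 0.05 over the 22645 entries (both 1). Both calls were lost when the libraries of replicate number 2 (-1.59 and -2.73) or 3 (-1.37 and -3.10) were left out.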

How the results depend on the processing

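The direction in which *nrpe1* differed from WT was the same under every alternative run, for the numbers on and for the 8 called loci, while the size of the counts depended on settings. The 8 loci were chosen as higher in *nrpe1* in these same libraries, so their direction is no independent support. For AT3G30803 and AT3G43370.1, at 0 in all WT libraries, it could not change. With a pseudocount of 1, which shrinks changes of low loci, the loci called fell to 0 higher and 1 lower in *brat1* relative to WT, 3 higher in *nrpe1* relative to WT, 2 lower in *brat1nrpe1* relative to *nrpe1* and 1 negative in the interaction. With a pseudocount of 0.01, 4 were lower in *brat1* and 4 lower in *brat1nrpe1*, where AT3G29784.1 and AT3G30803 lost their calls. Without a filter on low values 12 were higher in *nrpe1*, 9 lower in *brat1nrpe1* and 6 negative in the interaction, and with a mean of at least 1 FPKM, which leaves fewer loci to test, 1 was higher in *brat1*, 5 higher in *nrpe1*, 3 lower in *brat1nrpe1* and 1 negative in the interaction. Without the trend 4 were negative in the interaction, and with only the 6 libraries compared 1 was higher in *brat1*. At an adjusted p under 0.05 the counts were 0 and 0 in *brat1*, 0 higher and 3 lower in *brat1nrpe1*, and 0 in the interaction. With replicates 2 and 3 averaged as 1 sample, chosen after seeing the data, 0 were negative in the interaction.

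With the replicate block, 4 loci were lower in *brat1* than in WT, as described. It gave 3 loci higher in *brat1* than in WT (*bZIP42* was added), 10 higher in *nrpe1* than in WT (AT3G29110 and AT3G29788 were added) and 9 lower in *brat1nrpe1* than in *nrpe1* (*MYB121*, AT3G42800 and AT3G43828.1 were added), and it changed no other call. Except for loci lower in *brat1* with the block and for the adjusted p, counts under the alternatives stand without the share over all entries. They show how the calls of these loci moved, and not whether a setting called more entries everywhere.

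Leaving out replicates gave 0 to 2 loci higher and 1 to 5 lower in *brat1*, 6 to 11 higher in *nrpe1*, 0 to 1 higher and 3 to 6 lower in *brat1nrpe1*, and 0 to 1 positive and 0 to 3 negative in the interaction. Where a genotype was left with fewer libraries, the spread was pooled over all genotypes.

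The difference in entries on between *nrpe1* and WT was 21, but 7 with on set at 0.5 FPKM and 6 at 1 FPKM. Between *brat1nrpe1* and *nrpe1* it was -20, but -9 at 0.5 FPKM, -4 at 1 FPKM and -13 when on meant above 0 in all 3 libraries, and between -17 and -12 without 1 replicate number. Between *brat1* and WT it was 6, but -5, -1 and -2 under these definitions and 1 to 4 without 1 replicate number, so no direction can be given. Summing the entries of 1 locus, an alternative chosen after seeing the data, gave 139, 157, 143 and 138 on in *brat1nrpe1*, *nrpe1*, *brat1* and WT. The causes of these changes were not tested.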
